A study of Mus musculus with 10 samples.

Results

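The genes described here are the core of the MHC class I presentation pathway in mouse regulatory T (Treg) cells, the Foxp3-expressing CD4+ T cells that restrain immune responses. They were taken by name from the deposited count table and number 10 of its 55291 genes: the heavy chains H2-K1 and H2-D1, the light chain B2m, the peptide transporter subunits Tap1 and Tap2, the loading factor Tapbp, the transcriptional activator Nlrc5, and the immunoproteasome subunits Psmb8, Psmb9 and Psmb10. All 10 passed the filter on low counts that left 20068 genes for testing. None was picked by a cut-off on a measured value, though the choice was made with earlier results of these data known.

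The study sorted Treg cells from 2 kinds of subcutaneous tumour and from lymph nodes, and sequenced their total RNA. All mice carried the Foxp3YFP-cre allele, in which the Foxp3 locus drives a fluorescent reporter fused to Cre; the labels give no strain, sex or age. The LN group holds 4 libraries of Treg cells from lymph nodes of mice without a tumour. The Hepa1-6 group holds 4 libraries from tumours of the mouse hepatoma line Hepa1-6, taken on day 23 after injection. The E.G7 group holds 2 libraries from tumours of E.G7, a mouse T lymphoma line, taken on day 21. The Treg cells of the tumours were sorted from CD4+ T cells isolated from the infiltrate. The purpose stated for the series was to ask whether Treg cells in tumours, many of them induced outside the thymus, resemble a helper T cell subset, with lymph node Treg cells, mainly of thymic origin, as the control. The labels do not tell whether the replicates of a group are different mice. The p-values therefore reflect only how much the libraries of a group vary, and that variation may be technical.

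MHC class I molecules show peptides from proteins made inside the cell to CD8 T cells and natural killer cells. The proteasome cuts these proteins, and interferon gamma exchanges its 3 catalytic subunits (Psmb5, Psmb6 and Psmb7) for the inducible Psmb8, Psmb9 and Psmb10. The transporter TAP, made of Tap1 and Tap2, moves the peptides into the endoplasmic reticulum, where Tapbp (tapasin) helps to load them onto a heavy chain paired with B2m. Nlrc5 is the class I transactivator: it binds no DNA itself and acts through factors bound to a conserved promoter module, which includes an X2 box of the cyclic AMP response element type and a Y box bound by NF-Y. T cells are known for high levels of both class I and Nlrc5.

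Most of these genes lie close together in the MHC on chromosome 17. In mm10 coordinates of the deposited table they are Tapbp (chr17:33915899-33929292), H2-K1 (chr17:33996017-34000347), Psmb9 (chr17:34181987-34187764), Tap1 (chr17:34187553-34197225), Psmb8 (chr17:34197721-34201454), Tap2 (chr17:34203527-34216321) and H2-D1 (chr17:35262730-35267499). B2m lies at chr2:122147686-122153083, and chromosome 8 holds Nlrc5 (chr8:94434356-94527272) and Psmb10 (chr8:105935735-105938444). Psmb9 and Tap1 run in opposite directions and share 212 exon bases, so without a stated strand setting some of their reads could not be told apart. Exon bases shared with another annotated gene made up 29.0% of Tapbp, 18.5% of Tap2 and 14.7% of Psmb8. The heavy chains resemble each other and the non-classical class I genes: 9.63% of the 50-base stretches in H2-K1 transcripts and 12.8% of those in H2-D1 transcripts occur in another gene, so a small part of their reads is of uncertain origin.

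The promoters show what H2-K1, H2-D1 and B2m have in common. RefSeq promoter windows (GRCm38.p6, 250 bases before to 50 after the start) were matched for 8 of the 10 genes, all but Tap2 and Nlrc5. Bases are numbered back from the transcription start. The windows of H2-K1 (chr17:34000349-34000597, minus strand) and B2m (chr2:122147437-122147685, plus strand) are given in full, from -250 to -2, as the heavy chain and light chain of 1 molecule on different chromosomes; they were picked for display after their motifs were seen. Capitals mark matches to the motifs described after them.
H2-K1: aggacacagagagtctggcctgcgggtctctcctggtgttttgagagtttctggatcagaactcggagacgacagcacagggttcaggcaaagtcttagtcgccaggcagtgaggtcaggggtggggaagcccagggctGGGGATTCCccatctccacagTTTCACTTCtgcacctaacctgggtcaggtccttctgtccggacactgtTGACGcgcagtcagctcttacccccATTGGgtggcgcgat
B2m: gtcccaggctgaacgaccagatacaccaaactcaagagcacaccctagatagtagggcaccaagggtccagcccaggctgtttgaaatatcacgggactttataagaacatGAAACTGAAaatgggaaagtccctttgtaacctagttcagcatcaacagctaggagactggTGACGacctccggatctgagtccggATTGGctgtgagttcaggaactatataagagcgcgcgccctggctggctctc
Both windows, and that of H2-D1, hold an X2-type core (TGACG) followed by a Y box core (ATTGG), with 20 bases between them. The stretches are shown from X2-type core to Y box, with both in capitals: H2-K1 from -41 (chr17:34000359-34000388, minus strand), H2-D1 from -101 (chr17:35262993-35263022, plus strand) and B2m from -78 (chr2:122147609-122147638, plus strand).
H2-K1: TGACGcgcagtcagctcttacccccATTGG
H2-D1: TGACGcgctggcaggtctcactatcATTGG
B2m: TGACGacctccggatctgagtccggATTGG
This pair at this spacing, searched on both strands after the windows had been seen, occurs in 31 of 32851 promoters in the table (0.0944%). Those promoters belong to 27 genes; the only other class I gene among them is the non-classical H2-M3. Singly the motifs are common: TGACG is in 20.8% of all windows and in 5 of the 8 members matched (B2m, H2-D1, H2-K1, Psmb9, Tap1), and ATTGG in 37.4% and in 6 of 8, Tapbp being the sixth. The heavy chains further share a kB-type site (GGGNNTTCC, in 5.82% of all windows) and, 12 bases on, an interferon-type site (GAANNGAAA, in 7.52%, a spacing added after the windows had been seen), shown in capitals from the first to the second.
H2-K1: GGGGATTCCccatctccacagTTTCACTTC
H2-D1: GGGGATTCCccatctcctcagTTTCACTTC
These 2 stretches (chr17:34000429-34000458, minus strand, and chr17:35262923-35262952, plus strand) are identical at 29 of 30 bases, and the X2-type to Y box stretches of the same genes at 23 of 30. B2m holds the other spacing of the interferon-type site (GAAANNGAA, in 8.56% of windows) and Psmb8 a gamma-activated site (TTCNNNGAA, in 8.3%). The windows of Tap1 and Psmb9 overlap by 275 of 300 bases, so they are largely 1 shared promoter. A match to these letters is a description, not evidence that a factor binds there.

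Total counts ran from 22665563 to 24472849 in LN and from 26224286 to 26665325 in the tumour libraries, and the 10 genes held 1.91% to 2.28% of all counts. The lowest count of a member in any library was 3143. For H2-K1 the 2 E.G7 libraries had a coefficient of variation of only 0.159%, and 2 libraries measure spread poorly. Levels are given as CPM, the count scaled to a fixed library total, after TMM scaling. The libraries carried Treg genes beside genes of other cells. Foxp3 was 109 ± 10.8 CPM (SD, n = 4) in LN, 82.0 ± 11.00 (n = 4) in Hepa1-6 and 50.2 ± 4.34 (n = 2) in E.G7, while the summed level of 4 Treg genes (Foxp3, Il2ra, Ctla4, Ikzf2) was 1736 to 1940, 2651 to 2777 and 2081 to 2156 CPM. Of those 4 genes 1 was called higher and 2 lower in Hepa1-6 than in LN, and 1 higher and 3 lower in E.G7. The summed level of 10 pan T cell genes was 6314 to 6785, 5292 to 5460 and 5276 to 5355 CPM. The sum of 10 macrophage genes was 25.1 to 36.7 CPM in LN, 3575 to 3840 in Hepa1-6 and 701 to 740 in E.G7, and all 10 were called higher in both tumours than in LN. The sum of 10 dendritic cell and MHC class II genes was 157 to 179, 9505 to 9889 and 1727 to 1787 CPM, again with 10 of 10 higher in both tumours. The sum of 9 hepatoma genes was 7.79 to 10.1, 2657 to 2699 and 117 to 122 CPM. Serpina1a was at 0 in all 3 groups, Ambp in LN and Ttr in E.G7. Of these 9 genes 6 could be tested: 6 were called higher than LN in Hepa1-6, and 4 higher and 1 lower in E.G7. The sum of 6 thymocyte-type lymphoma genes was 17.6 to 20.01, 64.2 to 75.4 and 196 to 205 CPM, with Rag1 at 0 in all 3 groups and Rag2 at 0 in LN and E.G7. Of these 6 genes 3 could be tested: 1 was called higher than LN in Hepa1-6 and 3 in E.G7, and 0 lower in either. Over all genes tested, 37% were called higher and 31.1% lower in Hepa1-6, and 32.7% and 27.2% in E.G7. Most nucleated cells express class I, so these cell types can carry the same transcripts; their part in the results that follow was not tested, and in bulk RNA fewer cells of a type and less RNA per cell cannot be told apart.

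Nlrc5 had the largest difference among the 10 genes in E.G7, and it fell in both tumours. In LN it stood at 638, 597.5, 734 and 684 CPM. In Hepa1-6 it stood at 446, 438, 440.4 and 420.4 CPM, and in E.G7 at 319 and 287. The 3 groups did not overlap, and the Hepa1-6 libraries lay within a narrow band between the others. Relative to LN, Nlrc5 was 1.52-fold lower in Hepa1-6 (log2 -0.61, SE 0.060, edgeR adjusted p = 2.04e-07) and 2.19-fold lower in E.G7 (log2 -1.13, SE 0.077, edgeR adjusted p = 3.78e-09). Between the tumours it was 1.44-fold higher in Hepa1-6 (log2 0.53, SE 0.075, edgeR adjusted p = 2.59e-05). Both tumour comparisons share the LN libraries. Nlrc5 was called lower than LN under every scaling and every left-out library tried, from log2 -0.79 to -0.31 in Hepa1-6 and from -1.25 to -0.83 in E.G7.

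H2-D1, a classical heavy chain, was higher in both tumours than in LN. It stood at 4364, 4854, 4175 and 4832 CPM in LN, at 7092, 6964, 6989 and 6926 in Hepa1-6 and at 5232 and 5312 in E.G7. No group overlapped another, and the Hepa1-6 libraries had a coefficient of variation of 1.01%. The rise over LN was 1.54-fold in Hepa1-6 (log2 0.62, SE 0.046, edgeR adjusted p = 6.5e-09) and 1.16-fold in E.G7 (log2 0.21, SE 0.056, edgeR adjusted p = 0.00417). The E.G7 call did not hold under upper-quartile scaling (log2 0.09, adjusted p = 0.141).

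H2-K1, the other classical heavy chain, moved less. It stood at 5824, 5989, 5422 and 6075 CPM in LN, at 6746, 6580, 6397 and 6066 in Hepa1-6 and at 5377 and 5365 in E.G7. The fourth Hepa1-6 library lay below the highest LN library, and both E.G7 libraries lay just below the lowest. H2-K1 was 1.11-fold higher in Hepa1-6 than in LN (log2 0.15, SE 0.043, edgeR adjusted p = 0.00736), which became log2 -0.03 under upper-quartile scaling. The E.G7 value was log2 -0.12 (edgeR adjusted p = 0.0682); without LN replicate 3 it was called lower (-0.16, adjusted p = 0.0110), and again under upper-quartile scaling (-0.23, adjusted p = 0.000783), whereas pan T cell scaling called it higher (log2 0.19). Since the heavy chains moved by different amounts, the ratio of H2-D1 to H2-K1 counts per kilobase, which no scaling between libraries can change, was 0.890 ± 0.0308 in LN, 1.24 ± 0.0470 in Hepa1-6 and 1.12 ± 0.0138 in E.G7. This ratio was picked after the values had been seen and was not tested.

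B2m, the light chain that every classical class I molecule needs, was the highest of the 10 genes per kilobase of transcript. Its mean level was 6193 CPM per kilobase in LN, against 1984 for H2-K1, 1767 for H2-D1 and 214 or less for the other 7 genes. Ranked per kilobase among the 20068 genes, B2m was number 3 in LN, 2 in Hepa1-6 and 1 in E.G7, and both heavy chains ranked between 7 and 11 in every group. B2m stood at 5402, 5944, 4850 and 5109 CPM in LN, at 7475, 6850, 7541 and 7992 in Hepa1-6 and at 5605 and 6117 in E.G7. The Hepa1-6 libraries lay above all others, while the E.G7 and LN ranges overlapped. B2m was 1.40-fold higher in Hepa1-6 than in LN (log2 0.49, SE 0.061, edgeR adjusted p = 5.41e-06), and the E.G7 value was log2 0.14 (edgeR adjusted p = 0.125; 0.0210 without LN replicate 2). With RLE and pan T cell scaling it was called higher in E.G7, by log2 0.18 and 0.44.

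**Figure D1:**
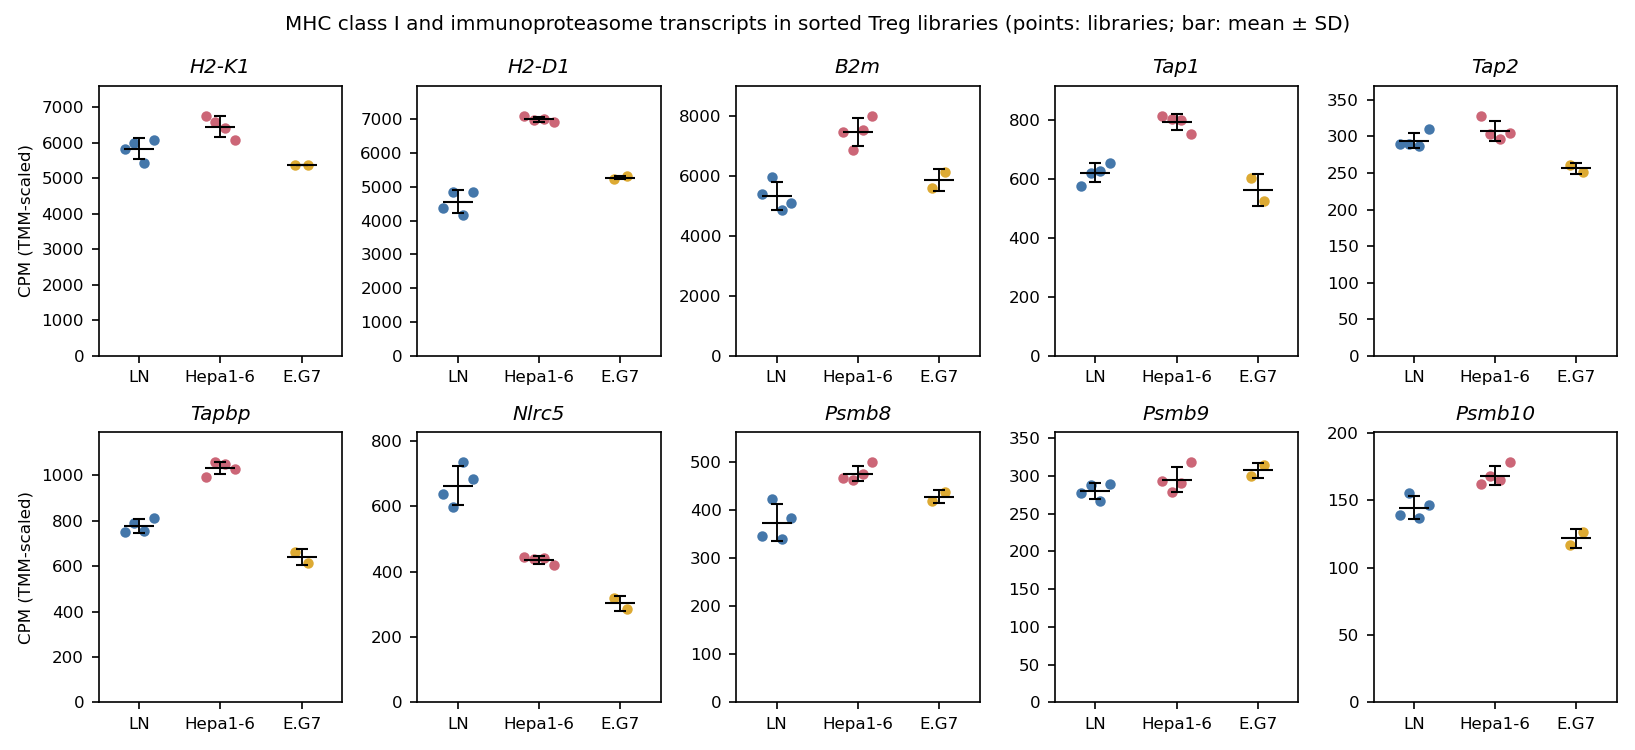
Levels of the 10 class I presentation genes in TMM-scaled CPM (y axes, from 0) for the LN, Hepa1-6 and E.G7 libraries. Each point is a library and bars give the mean ± SD (n = 4, 4 and 2); Nlrc5 falls from LN (663) through Hepa1-6 (436) to E.G7 (303), while H2-D1, B2m, Tap1, Tapbp and Psmb8 are highest in Hepa1-6.

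Among the peptide loading genes, Tap1 and Tapbp were higher in Hepa1-6 than in LN, and Tap2 was not called. Tap1, a subunit of the peptide transporter, stood at 577, 621, 627 and 654 CPM in LN, at 813, 803, 798 and 753 in Hepa1-6 and at 601 and 524 in E.G7. The Hepa1-6 libraries lay above all LN libraries and E.G7 overlapped LN. The difference from LN was log2 0.35 in Hepa1-6 (1.28-fold, SE 0.053, edgeR adjusted p = 2.06e-05) and log2 -0.14 in E.G7 (edgeR adjusted p = 0.0732). Without LN replicate 1 or E.G7 replicate 1 the E.G7 value was called lower, with adjusted p of 0.0311 and 0.0169, as it was with upper-quartile scaling (log2 -0.26), and with pan T cell scaling it was called higher (log2 0.17). Tap2, the partner subunit, stood at 289.6, 290.0, 287 and 309 CPM in LN, at 328, 303, 296 and 304 in Hepa1-6 and at 261 and 251 in E.G7. LN and Hepa1-6 overlapped (log2 0.07, 95% interval -0.04 to 0.17, edgeR adjusted p = 0.237), and both E.G7 libraries lay below every other library (log2 -0.20 against LN, edgeR adjusted p = 0.00878). This fall was not called without E.G7 replicate 2 (adjusted p = 0.0917), and was log2 0.11 with pan T cell scaling; the Hepa1-6 value was -0.12 with upper-quartile and 0.36 with pan T cell scaling, called both times. The ratio of Tap1 to Tap2 per kilobase was 1.46 ± 0.0569 in LN, 1.78 ± 0.0783 in Hepa1-6 and 1.51 ± 0.104 in E.G7, picked after the values had been seen and not tested.

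Tapbp, which holds an empty class I molecule next to the transporter, had opposite calls in the 2 tumours. It stood at 749, 789, 756 and 812 CPM in LN, at 992, 1056, 1047 and 1029 in Hepa1-6 and at 663 and 614 in E.G7. None of the 3 groups overlapped. Tapbp was 1.33-fold higher than LN in Hepa1-6 (log2 0.41, SE 0.044, edgeR adjusted p = 5.18e-07) and 1.22-fold lower in E.G7 (log2 -0.28, SE 0.054, edgeR adjusted p = 0.000311). The direct difference between the tumours was log2 0.69 (SE 0.055, edgeR adjusted p = 4.48e-08), the largest of the 10 genes. The fall in E.G7 was absent when libraries were scaled to pan T cell genes (log2 0.02).

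The immunoproteasome subunits gave small differences. Psmb8 (LMP7) stood at 347, 424, 341 and 385 CPM in LN, at 468, 464, 476 and 499.9 in Hepa1-6 and at 419.6 and 438 in E.G7. Hepa1-6 lay above all LN libraries (1.27-fold, log2 0.35, SE 0.062, edgeR adjusted p = 0.000126), and the second LN library overlapped E.G7 (log2 0.20, SE 0.076, edgeR adjusted p = 0.0353). The E.G7 call was lost without LN replicate 1 or 3 or either E.G7 replicate, with adjusted p of 0.0981, 0.0934, 0.0662 and 0.184. Psmb9 (LMP2) stood at 278, 288, 267 and 289 CPM in LN, at 293, 279, 290.2 and 318 in Hepa1-6 and at 300.5 and 315 in E.G7. It passed the test in none of the 3 comparisons, with log2 0.07 in Hepa1-6 (95% interval -0.04 to 0.18, edgeR adjusted p = 0.219), 0.13 in E.G7 (0.0017 to 0.26, edgeR adjusted p = 0.0752) and -0.06 between the tumours (-0.19 to 0.07, edgeR adjusted p = 0.461). With pan T cell scaling it was called higher in both tumours, by log2 0.37 and 0.44, and in E.G7 also with RLE scaling and DESeq2 (log2 0.18 each).

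Psmb10 (MECL-1), the third inducible subunit, stood at 139, 155, 137 and 147 CPM in LN, at 162, 168, 165 and 178 in Hepa1-6 and at 117 and 127 in E.G7. The groups did not overlap. Its calls against LN were opposite: log2 0.22 in Hepa1-6 (SE 0.056, edgeR adjusted p = 0.00278) and log2 -0.25 in E.G7 (SE 0.070, edgeR adjusted p = 0.00619). The Hepa1-6 call was lost under upper-quartile scaling (log2 0.04), the fall in E.G7 turned to log2 0.06 under pan T cell scaling, and without E.G7 replicate 1 it was log2 -0.18 (adjusted p = 0.104).

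Counted together, 7 of the 10 genes were called higher and 1 lower in Hepa1-6 than in LN, where 37% of all 20068 genes tested were called higher and 31.1% lower. The count of 7 became 5 with upper-quartile and 9 with pan T cell scaling, which called 6356 and 9529 of all 20068 genes higher. In E.G7, 2 were called higher than LN and 4 lower (H2-D1 and Psmb8; Tap2, Tapbp, Nlrc5 and Psmb10), where the shares over all genes were 32.7% and 27.2%. Without LN replicate 1, LN replicate 3 or either E.G7 replicate, 1 was called higher in E.G7 than in LN. Between the tumours, 8 were called higher in Hepa1-6 than in E.G7 and 0 lower, where the shares were 26.1% and 19.6%; the count of 0 was the same at an unadjusted p under 0.05 and with DESeq2. The median log2 difference of the 10 genes was 0.28 in Hepa1-6 against LN, -0.13 in E.G7 against LN and 0.38 in Hepa1-6 against E.G7, beside 0.04, 0.01 and 0.06 over all genes. The tumour comparisons with LN share its 4 libraries, and the tumour libraries enter 2 comparisons each. The Hepa1-6 libraries are also those with the highest macrophage, dendritic cell and hepatoma sums.

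**Figure D2:**
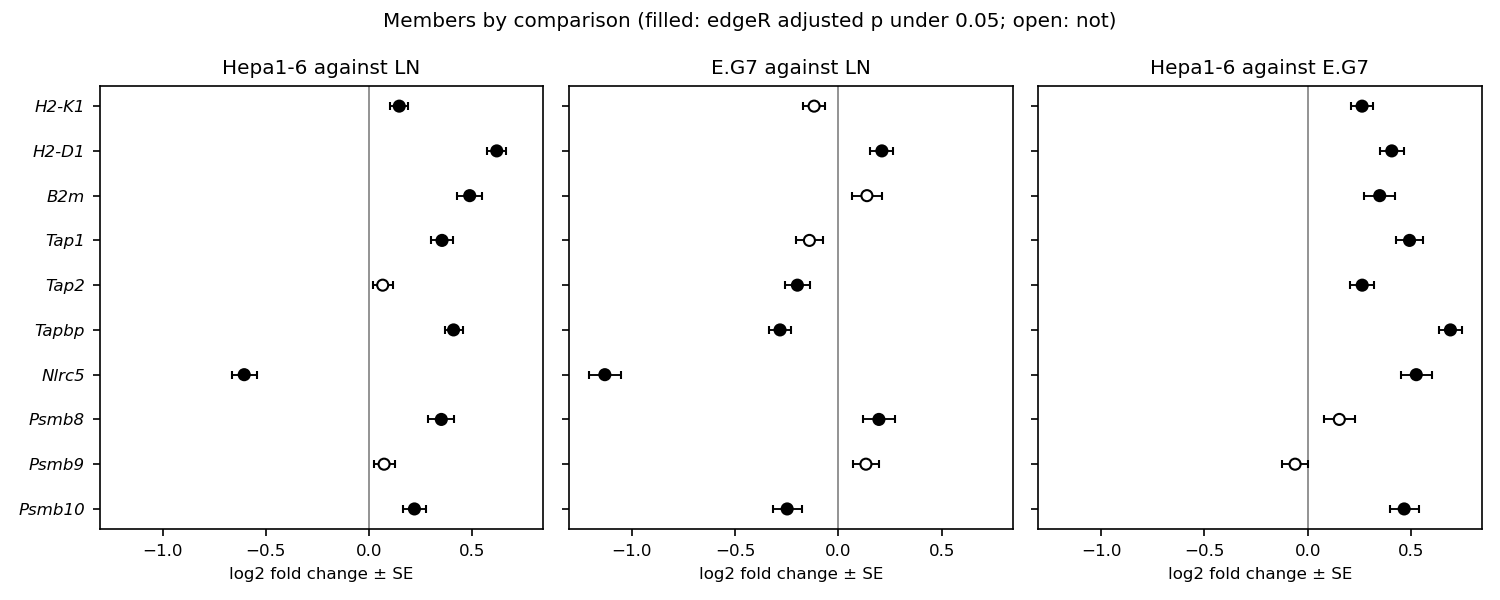
Log2 fold change ± SE (x axes) of each gene in the 3 comparisons, from 1 edgeR fit with TMM scaling; filled points have an adjusted p under 0.05. Nlrc5 lies left of 0 against LN in both tumours (-0.61 and -1.13), and 8 of 10 genes lie right of 0 and are filled for Hepa1-6 against E.G7; against LN, several values near 0 change sign under other scalings.

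The calls between the 2 tumours were the same for all 10 genes under the 4 scalings tried, and those against LN partly changed. Upper-quartile scaling moved the median of all genes by -0.17 in Hepa1-6 against LN and by -0.08 in E.G7 against LN, and scaling to the pan T cell genes moved it by 0.29 and 0.30. With the pan T cell genes as the reference, 9529 genes were called higher and 4037 lower in Hepa1-6 than in LN, in place of 7419 and 6237, and 8522 and 3572 in E.G7, in place of 6554 and 5459. The members' median stood 0.25 above that of all genes in Hepa1-6 against LN, 0.14 below it (difference -0.14) in E.G7 against LN and 0.32 above it in Hepa1-6 against E.G7, and a scaling factor moves both medians together. In E.G7 against LN, the number of the 10 called higher was 2 with TMM, 4 with RLE, 0 with upper-quartile and 6 with pan T cell scaling, and the number called lower was 4, 4, 6 and 1. Over all 20068 genes, RLE called 6824 higher and 5195 lower in that comparison, and upper-quartile scaling 5857 and 6266. In Hepa1-6 against LN, H2-D1, B2m, Tap1, Tapbp and Psmb8 were called higher and Nlrc5 lower with all 4.

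**Figure D3:**
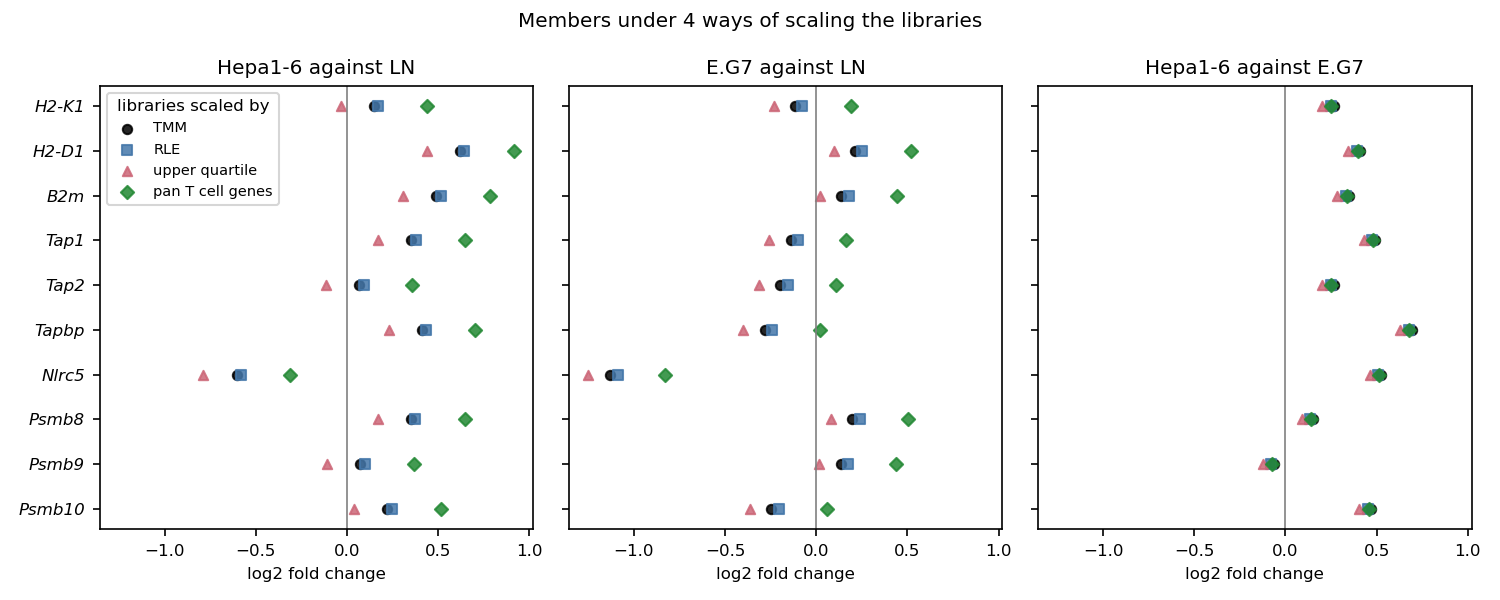
Log2 fold change (x axes) of the 10 genes in each comparison with libraries scaled by TMM, RLE, upper quartile or the 10 pan T cell genes. Nlrc5 stays left of 0 and H2-D1, B2m, Tap1, Tapbp and Psmb8 right of 0 in Hepa1-6 against LN, whereas 5 genes (H2-K1, Tap1, Tap2, Tapbp and Psmb10) cross 0 in E.G7 against LN with pan T cell scaling and the symbols for Hepa1-6 against E.G7 nearly coincide.

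The constitutive catalytic subunits rose in both tumours, by larger log2 values than their inducible counterparts. Psmb5, the counterpart of Psmb8, stood at 70.7, 81.9, 65.3 and 76.8 CPM in LN, at 119, 115, 121 and 123 in Hepa1-6 and at 129.6 and 148 in E.G7. It was higher than LN by log2 0.70 in Hepa1-6 and 0.91 in E.G7. Psmb6, the counterpart of Psmb9, was higher by log2 0.63 and 0.79, and Psmb7, the counterpart of Psmb10, by log2 0.73 and 1.35. All 6 edgeR adjusted p were 1.29e-06 or less, where 37% of all genes tested were called higher in Hepa1-6 and 32.7% in E.G7. None of the 3 genes overlapped LN in either tumour. The share of all genes without such overlap was not counted.

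In each library the ratio of inducible to constitutive subunit was therefore taken, in counts per kilobase of exon; it is free of the scaling between libraries, though its level depends on the deposited exon lengths. The Psmb8 to Psmb5 ratio was 1.31, 1.38, 1.39 and 1.33 in LN, 1.04, 1.07, 1.05 and 1.08 in Hepa1-6 and 0.861 and 0.788 in E.G7. The Psmb9 to Psmb6 ratio was 1.26, 1.10, 1.23 and 1.07 in LN, 0.770, 0.782, 0.796 and 0.801 in Hepa1-6 and 0.757 and 0.712 in E.G7. The Psmb10 to Psmb7 ratio was 4.90, 4.61, 5.15 and 5.29 in LN, 3.30, 3.63, 3.56 and 3.49 in Hepa1-6 and 1.61 and 1.67 in E.G7. For all 3 pairs the groups did not overlap and ran in the order LN, Hepa1-6, E.G7. As a share of its pair, Psmb8 was 57.5% ± 0.699 in LN, 51.5% ± 0.417 in Hepa1-6 and 45.2% ± 1.54 in E.G7. In the same order Psmb9 was 53.8% ± 1.96, 44.0% ± 0.442 and 42.3% ± 1.07, and Psmb10 was 83.3% ± 0.844, 77.7% ± 0.717 and 62.1% ± 0.630.

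The ratio in Hepa1-6 was lower than in LN by 1.27-fold for Psmb8 to Psmb5, 1.48-fold for Psmb9 to Psmb6 and 1.43-fold for Psmb10 to Psmb7, each with a two-sided exact permutation p of 0.0286. That is the smallest p that 4 libraries against 4 allow, and it became 0.0857 after Benjamini-Hochberg adjustment over the 9 ratio tests. In E.G7 the ratios were lower than in LN by 1.64-fold, 1.59-fold and 3.05-fold, where 4 against 2 libraries cannot give an exact p under 0.133, the value found for each. Between the tumours the log2 ratios were higher in Hepa1-6 by 0.36, 0.10 and 1.09, also with an exact p of 0.133 each. Of the 50-base stretches in Psmb5 transcripts, 54.1% also occur in another gene, mostly the annotated Gm3375, and Psmb7 shares 11.8% of its exon bases with another gene, so the levels of the first and last ratio are the less certain.

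**Figure D4:**
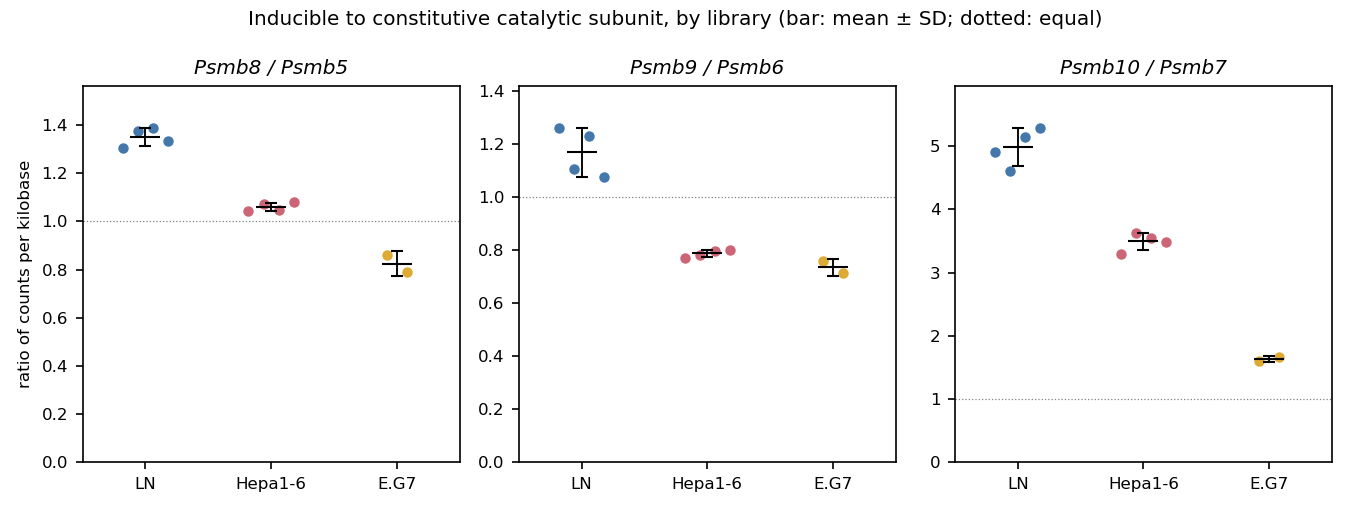
Ratio of inducible to constitutive catalytic subunit in counts per kilobase (y axes, from 0) in each library, with mean ± SD; the dotted line marks a ratio of 1. All 3 ratios are highest in LN (means 1.35, 1.17 and 4.99), intermediate in Hepa1-6 (1.06, 0.787 and 3.49) and lowest in E.G7 (0.824, 0.734 and 1.64).

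Other genes around the proteasome were mostly higher in both tumours. Of 12 counterparts, activators and assembly factors, 11 could be tested: 7 were called higher and 1 lower in Hepa1-6 than in LN, and 8 higher and 1 lower in E.G7, with medians of log2 0.48 and 0.68, where 37% and 31.1% of all genes were called higher and lower in Hepa1-6, and 32.7% and 27.2% in E.G7. With upper-quartile scaling 6 were higher and 4 lower in Hepa1-6, and 6 higher and 1 lower in E.G7. Over all 20068 genes that scaling called 6356 higher and 7754 lower in Hepa1-6, and 5857 and 6266 in E.G7. The thymus-specific Psmb11 was not tested. The interferon-inducible 11S activator subunits diverged. Psme1 was log2 -0.13 in Hepa1-6 (edgeR adjusted p = 0.0546) and fell by 0.35 on the log2 scale in E.G7 (edgeR adjusted p = 0.000584, not called with pan T cell scaling), whereas Psme2 rose by log2 0.54 and 0.25 (edgeR adjusted p = 1.51e-06 and 0.0111, the latter lost with upper-quartile scaling). Psme3, the nuclear activator that interferon does not induce, rose by log2 0.48 and 1.25, the former lost with upper-quartile scaling. Pomp, the chaperone of proteasome assembly, rose by log2 0.92 and 0.80. Between the tumours 2 of the 11 were higher in Hepa1-6 and 3 lower, where 26.1% and 19.6% of all genes were. With upper-quartile scaling the counts were 1 and 6, beside 4759 and 4502 of all 20068 genes. The assembly chaperone Psmg1 (log2 -1.34, edgeR adjusted p = 1.6e-08) and Psmb7 (log2 -0.62, edgeR adjusted p = 1.7e-05) had the smallest adjusted p.

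Loading and trimming partners were mostly higher in both tumours. All 16 were tested. In Hepa1-6 14 were called higher than LN and 1 lower, and in E.G7 10 higher and 4 lower, beside the same shares over all genes. The medians were log2 0.57 and 0.60. With upper-quartile scaling the counts were 12 and 2, and 10 and 5, beside the counts over all genes given above for that scaling. The chaperones of the endoplasmic reticulum rose in both tumours. Hspa5 (BiP), the general chaperone there, rose by log2 1.51 and 1.39, and Calr (calreticulin), which holds the heavy chain in the loading complex, by log2 1.37 and 0.99. Canx (calnexin), which folds new heavy chains, rose by log2 0.67 and 0.84, and Pdia3 (ERp57), the disulfide partner of tapasin, by log2 0.69 and 0.40. The largest edgeR adjusted p of these 8 was 8.28e-06.

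The class I-specific partners Tapbpl and Erap1 gave values with opposite signs in the 2 tumours. Tapbpl, a tapasin-related peptide editor, was log2 0.14 in Hepa1-6 (edgeR adjusted p = 0.0282, log2 -0.04 with upper-quartile scaling) and log2 -0.58 in E.G7 (edgeR adjusted p = 1.73e-06). Erap1, which trims peptides for class I, was log2 0.21 in Hepa1-6 (edgeR adjusted p = 0.000968, not called with upper-quartile scaling) and log2 -0.18 in E.G7 (edgeR adjusted p = 0.0144, not called with RLE scaling, log2 0.12 with pan T cell scaling). Like Tapbp, both were higher in Hepa1-6 than in E.G7, Tapbpl by log2 0.73 (edgeR adjusted p = 2.61e-07) and Erap1 by log2 0.39 (edgeR adjusted p = 4.55e-05). Of the 16, 7 were higher and 4 lower in Hepa1-6 than in E.G7, where 26.1% and 19.6% of all genes were.

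Regulators of class I and of interferon gamma signalling held calls in both directions. Of 25 genes, all tested, 11 were called higher and 6 lower in Hepa1-6 than in LN, and 8 higher and 9 lower in E.G7, with medians of log2 0.13 and -0.06; over all genes, 37% and 31.1% were called higher and lower in Hepa1-6, and 32.7% and 27.2% in E.G7. The balance turned with the scaling, as did that of all genes. In Hepa1-6 it was 7 higher and 9 lower with upper-quartile scaling (median log2 -0.05), beside 6356 and 7754 of all 20068 genes. With pan T cell scaling it was 17 and 4, beside 9529 and 4037. In E.G7 it was 8 and 13 with upper-quartile scaling, beside 5857 and 6266. With pan T cell scaling it was 12 and 7 (median log2 0.24), beside 8522 and 3572. Irf1, the interferon-induced activator of Tap1, Psmb9 and class I promoters, rose from 282 ± 2.96 CPM in LN to 613 ± 7.23 in Hepa1-6 (log2 1.12, edgeR adjusted p = 5.34e-13) and 446 ± 10.7 in E.G7 (log2 0.66, edgeR adjusted p = 6.44e-09). Irf2, which binds the same sites, was log2 -0.03 in Hepa1-6 (edgeR adjusted p = 0.680) and log2 -0.79 in E.G7 (edgeR adjusted p = 4.72e-08). Rfx5, part of the complex through which Nlrc5 reaches DNA, was low (9.63 ± 3.82 CPM in LN) and was not called in any comparison.

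The receptor gene Ifngr1 and the myeloid and lymphoid factor Irf8 had the smallest adjusted p among the regulators. Ifngr1 rose by log2 1.93 in Hepa1-6 and 1.64 in E.G7, and Irf8 by log2 3.14 and 1.53. Between the tumours 15 of the 25 were higher in Hepa1-6 and 2 lower, where 26.1% and 19.6% of all genes were. Irf8 and Ciita, the class II counterpart of Nlrc5, had the smallest adjusted p of these, with log2 1.61 and 2.71. Ciita stood at 2.06 ± 0.690 CPM in LN, 90.6 ± 3.76 in Hepa1-6 and 13.8 ± 1.48 in E.G7, so the class I and class II activators moved in opposite directions from LN to both tumours. Ciita and Irf8 are expressed by dendritic cells, macrophages and B cells. The macrophage and dendritic cell sums were highest in Hepa1-6 as given above. The sum of 6 B cell genes was highest in LN, at 827 to 935 CPM against 370 to 440 in Hepa1-6 and 621 to 630 in E.G7. Singly, however, 3 of these 6 genes were called higher and 2 lower than LN in each tumour. Their medians were log2 1.12 in Hepa1-6 and 1.32 in E.G7. The part of these cells was not tested.

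**Figure D5:**
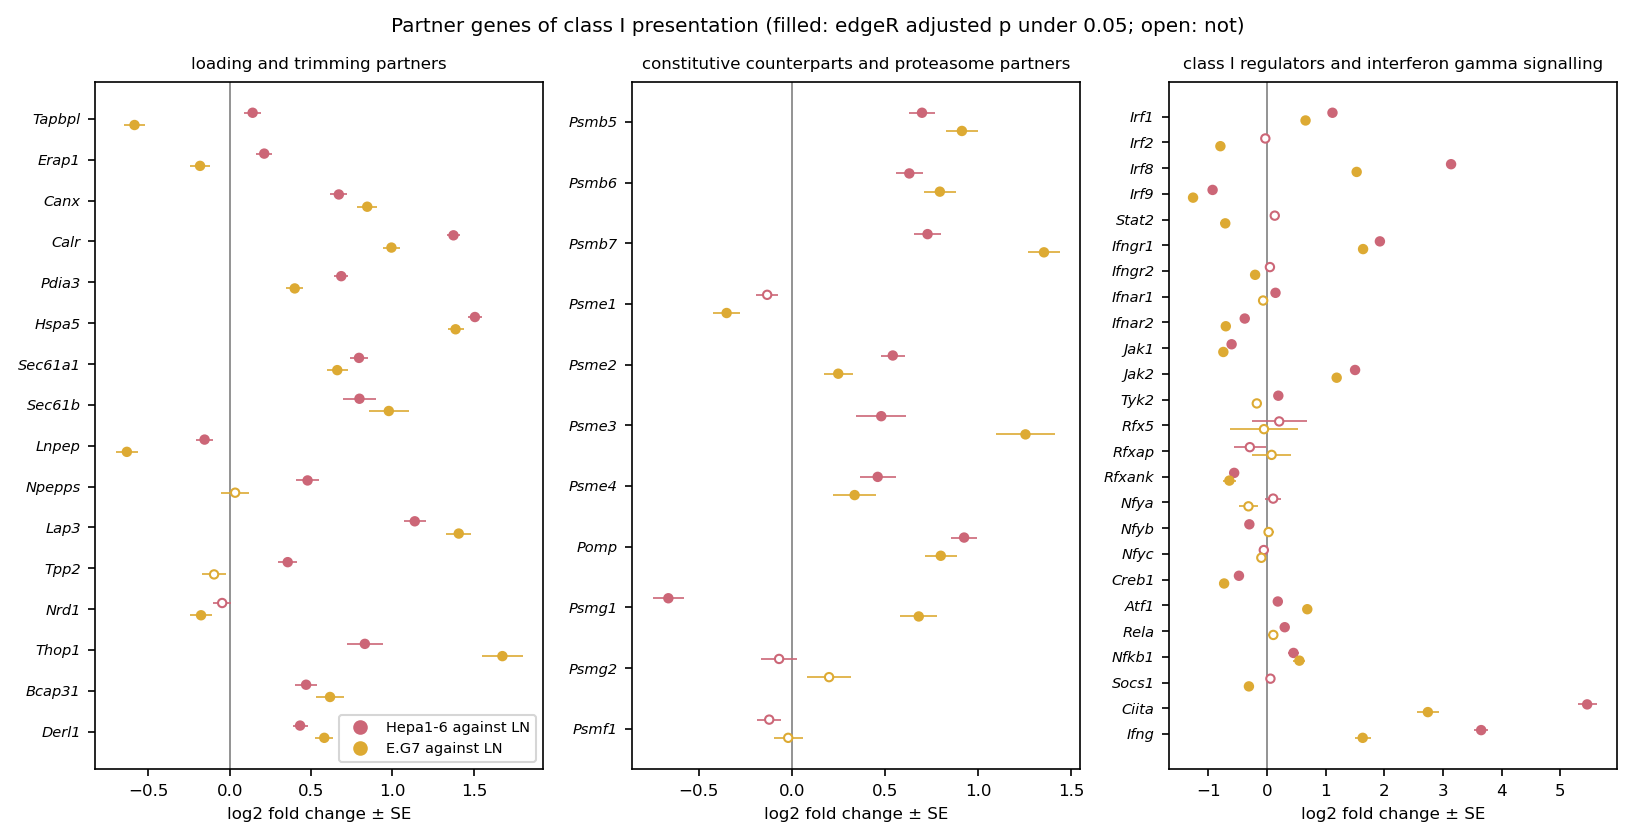
Log2 fold change ± SE (x axes) against LN of the loading partners, proteasome partners and regulators, for Hepa1-6 and E.G7; filled points have an edgeR adjusted p under 0.05. Psmb5, Psmb6, Psmb7, Calr, Hspa5 and Irf1 lie right of 0 in both tumours, and Tapbpl and Erap1 have opposite signs in the 2 tumours with TMM scaling.

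Set beside its target genes, Nlrc5 separated from the heavy chains in both tumours. Per kilobase, the ratio of Nlrc5 to H2-D1 was 0.0445 ± 0.00663 in LN, 0.0189 ± 0.000338 in Hepa1-6 and 0.0175 ± 0.00151 in E.G7, and that of Nlrc5 to H2-K1 was 0.0395 ± 0.00522, 0.0234 ± 0.000554 and 0.0195 ± 0.00145. In both ratios every tumour library lay below every LN library. Nlrc5 by itself did not overlap LN in either tumour, so the ratios in part restate its fall. Genes other than the heavy chains were not set beside Nlrc5 in this way. These ratios were picked after the values had been seen and were not tested.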

How the data were processed

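Gene counts for 10 libraries were deposited by the authors in 1 table with gene coordinates and exon lengths, and FPKM values in 1 file per library. HISAT2, featureCounts, Subread, RSEM, DESeq2 and the mm10 build are named, per the submitters' processing notes; versions, annotation release, strand setting and the handling of multiply mapped reads are not given in the sources used here. The FPKM files hold 12930 genes. Among those with FPKM over 1 in all 10 libraries, the authors' FPKM typically equalled count over length over 1 library size. The other genes were not checked. The members and lists were chosen with earlier results of these data known. Counts were fitted in R 4.3.3 with edgeR 4.0.16 (TMM, filterByExpr, robust quasi-likelihood test, 1 term per group over 10 libraries, Benjamini-Hochberg adjusted p under 0.05 over 20068 genes). CPM used TMM library sizes. Subunit ratios used the deposited exon lengths and exact two-sided permutation tests. Alternatives were RLE, upper-quartile and pan T cell scaling, no filter, DESeq2 1.42.0, the 2 groups alone, a replicate block, limma 3.58.1 on log2(FPKM + 1) and log2(FPKM + 0.1), and each library left out. Replicates differed by 7.41 to 18.9 times sampling noise (chi-square per degree of freedom), so none was counted as a duplicate. The edgeR steps were tested on simulated data.

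Named genes were the members, their constitutive counterparts, fixed activators, chaperones and regulators, and in each list the pair of genes with the lowest adjusted p in a comparison. Transcript sequences for the overlap checks were those of GENCODE M21. A gene of the regulator list is not reported here and was left out of that list's counts and medians; it stayed in the fit over all genes.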

Additional observations from a re-analysis of the deposited data

Results flagged for a closer look

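Tap2 in LN replicate 4, at 309 CPM, stood apart from the other 3 LN libraries, which lay between 287 and 290.0 CPM; its gap to them was 0.877 of the range, over Dixon's 95% critical value for 4 libraries. Of 26 groups of values examined this way 1 was marked, and chance marks about 1 in 20.

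Tapbp and Psmb10 were called higher than LN in Hepa1-6 and lower in E.G7, and the direct contrast between the tumours was called for both, with log2 0.69 for Tapbp and log2 0.47 for Psmb10. With pan T cell scaling neither was lower than LN in E.G7, and the contrast between the tumours was called with every scaling tried.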

How the results depend on the processing

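All values of single members for Hepa1-6 against E.G7, under each alternative, kept their direction and their side of the threshold. The subunit ratios kept their direction in all 3 comparisons; their adjusted p could not pass the threshold in any setting. In Hepa1-6 against LN, upper-quartile scaling called 5 members higher in place of 7 and 2 lower in place of 1, beside 6356 and 7754 of all 20068 genes. It turned H2-K1 to log2 -0.035, Tap2 to -0.12 (edgeR adjusted p = 0.0375) and Psmb9 to -0.11. Pan T cell scaling called 9 members higher in that comparison, beside 9529 of all 20068 genes. In E.G7 against LN, the number of members called higher (2) became 4 with RLE, 0 with upper-quartile (also 0 at an unadjusted p under 0.05), 6 with pan T cell scaling and 1 with each of the 3 limma fits on FPKM. With pan T cell scaling 1 was called lower in place of 4, and H2-K1 became log2 0.19, Tap1 0.17, Tap2 0.11, Tapbp 0.0232 and Psmb10 0.0577. Leaving out 1 library gave 1 to 3 members called higher; it was 1 without LN replicate 1, LN replicate 3, E.G7 replicate 1 or E.G7 replicate 2. With 1 E.G7 library left, that library is assumed to vary like the other groups. Tap2 was lost in E.G7 against LN without a filter (adjusted p = 0.0523) and without E.G7 replicate 2 (0.0917). Apart from scaling, whose construction shifts all genes, the causes were not tested.

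Libraries with the same replicate number did not deviate together (correlations from -0.049 to 0.0287), so no pairing by number was seen. The 2 E.G7 libraries lie at equal distances on either side of their mean, so their correlations only mirror each other. Whether libraries share a mouse, day or batch was not tested. With the replicate block, 1 member was called higher in E.G7 against LN in place of 2, since Psmb8 reached an adjusted p of 0.0548.

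Depth does not limit these genes, the lowest count of a member in any library being 3143. E.G7 has 2 libraries, which limits the tests of its ratios.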

Other observations

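Non-classical and other class I genes, which present lipids, metabolites or fixed peptides or serve as ligands of killer cell receptors, did not move as 1 group. Of 16 genes, 15 were tested. Of these, 5 were called higher and 5 lower in Hepa1-6 than in LN (2 and 7 with upper-quartile scaling), beside 37% and 31.1% of all genes. In E.G7 the counts were 4 higher and 9 lower (5 and 4 with pan T cell scaling), beside 32.7% and 27.2%. Between the tumours 10 were higher in Hepa1-6 and 1 lower, beside 26.1% and 19.6%. These shares are those with TMM scaling. Counts over all genes for the other scalings are given in the report with the regulators. H2-T23, which encodes Qa-1, the ligand of the NKG2A receptor, stood at 635 ± 39.8 CPM (SD, n = 4) in LN, 731 ± 71.8 (n = 4) in Hepa1-6 and 418 ± 3.59 (n = 2) in E.G7, and was higher in Hepa1-6 than in E.G7 by log2 0.81 (edgeR adjusted p = 7.45e-07). Cd1d1, which presents lipids, fell by 0.69 on the log2 scale in Hepa1-6 and by 0.92 in E.G7, and Mr1, which presents vitamin B metabolites, by 0.59 and 0.61; both, with H2-T24 and H2-Q2, were chosen after their values were seen. H2-T24 stood at 59.4 ± 3.49, 31.1 ± 3.93 and 17.5 ± 0.590 CPM, and H2-Q2 at 4.28 ± 2.76, 2.56 ± 0.895 and 63.4 ± 2.65 CPM, highest in E.G7. How much sequence H2-Q2 shares with other class I genes was not checked, so the origin of its reads is uncertain.

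Fcgrt, the neonatal Fc receptor and a partner of B2m, stood at 0.798 ± 0.212 CPM in LN, 51.7 ± 3.78 in Hepa1-6 and 5.70 ± 0.562 in E.G7, and H2-M2 at 0.0975 ± 0.0739, 16.7 ± 0.820 and 7.84 ± 1.57 CPM. Of 9 receptor genes of killer and myeloid cells tested, 8 were near 0 in LN and called higher in both tumours. Cd160, the ninth, was lower in both (log2 -0.82 and -0.81). Over all genes 37% were called higher and 31.1% lower in Hepa1-6, and 32.7% and 27.2% in E.G7. Some of the 8 stayed near 0 in a tumour. Klra1 stood at 0.0514 CPM in Hepa1-6, where it overlapped LN, and Klra3 and Klra7 at 0.0922 CPM in E.G7. Klrd1, the shared chain of the Qa-1 receptors, stood at 0.305 ± 0.123, 54.1 ± 4.55 and 16.7 ± 1.66 CPM, and Lilrb4a, an inhibitory receptor of myeloid cells, at 2.35 ± 0.488, 380.0 ± 17.6 and 75.6 ± 12.9 CPM. The summed level of 8 CD8 T and NK cell genes, Klrd1 among them, was 29.5 to 33.8 CPM in LN, 467 to 498 in Hepa1-6 and 132 in E.G7, beside the macrophage sums given in the report; their part in these levels was not tested.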
